A study of Rattus norvegicus with 22 samples.

Results

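The genes for 8 CC chemokines, Ccl2, Ccl3, Ccl4, Ccl5, Ccl7, Ccl9, Ccl20 and Ccl24, were followed in the lungs of rats with experimental pulmonary embolism (PE). Members were taken by gene symbol from the annotation of the Affymetrix Rat Genome 230 2.0 array, and all 8 were found among 14217 annotated genes. Each was measured by 1 probe set (1367973_at for Ccl2, 1369815_at for Ccl3, 1370832_at for Ccl4, 1369983_at for Ccl5, 1379935_at for Ccl7, 1392172_at for Ccl9, 1369814_at for Ccl20 and 1385309_at for Ccl24). None of the 8 had a value at the lower limit of the measurement in any lung, but the Vehicle values of Ccl7 and Ccl24 were low signals. Male Sprague-Dawley rats were injected through the jugular vein with polystyrene beads 25 micron wide, which lodge in the lung arteries, and the right lung was taken after 2 h or 18 h. Vehicle rats (3 at each time) received 0.15 ml per 100 g body weight of 0.01% Tween 20 with no beads. Mild PE rats (4 at each time) received 1300000 beads per 100 g in 0.10 ml. Severe PE rats (4 at each time) received 2000000 beads per 100 g in 0.15 ml. The beads were also suspended in 0.01% Tween 20. All lungs were rinsed through the airway with 8 ml of saline before they were removed, and each of the 22 arrays held whole-lung RNA of 1 rat. Beads block vessels without forming a clot, which limits the model.

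CC chemokines are small secreted proteins that leukocytes follow through receptors on their surface. Ccl2 and Ccl7 draw monocytes through the receptor Ccr2, and Ccl7 also binds Ccr1 and Ccr3. Ccl3, Ccl4 and Ccl5 act on macrophages, T cells and NK cells. Ccl3 and Ccl5 bind Ccr1, as Ccl9 does in mice. Ccl24, also called eotaxin-2, draws eosinophils through Ccr3, and Ccl20 draws cells that carry Ccr6. Macrophages, endothelium and epithelium make many of these proteins when Tnf, interleukin 1 or injury activates the transcription factor NF-κB. In RNA of whole lung, a change in the number of cells that make a chemokine and a change in RNA per cell cannot be told apart.

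Promoter sequences are shown for Ccl7, Ccl9, Ccl24 and Ccl20, the only 4 members that the RefSeq table (rat build GRCr8) held. Each runs 5′ to 3′ from 250 bases before the start of the transcript, and the stretches of Ccl9 (199 bases) and Ccl20 (230 bases) end where an earlier annotated start of the gene begins. Capitals mark matches to the NF-κB consensus motif, which has 10 letters and was searched on both strands.
Ccl7, chr10:67513845-67514094, plus strand: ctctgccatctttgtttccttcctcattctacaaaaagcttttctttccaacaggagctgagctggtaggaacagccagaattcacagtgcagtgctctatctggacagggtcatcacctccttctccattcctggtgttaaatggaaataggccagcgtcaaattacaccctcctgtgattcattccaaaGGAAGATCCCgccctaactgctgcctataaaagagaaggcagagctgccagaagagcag
Ccl9, chr10:68868929-68869127, minus strand: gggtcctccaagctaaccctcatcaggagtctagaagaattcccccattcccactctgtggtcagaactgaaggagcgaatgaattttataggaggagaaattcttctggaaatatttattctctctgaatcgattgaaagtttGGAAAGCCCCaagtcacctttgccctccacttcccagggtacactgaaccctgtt
Ccl24, chr12:26737173-26737422, plus strand: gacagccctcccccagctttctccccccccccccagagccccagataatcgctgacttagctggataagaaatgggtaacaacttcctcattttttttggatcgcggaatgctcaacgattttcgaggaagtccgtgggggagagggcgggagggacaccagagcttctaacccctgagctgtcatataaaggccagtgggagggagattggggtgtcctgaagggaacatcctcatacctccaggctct
Ccl20, chr9:91836909-91837138, plus strand: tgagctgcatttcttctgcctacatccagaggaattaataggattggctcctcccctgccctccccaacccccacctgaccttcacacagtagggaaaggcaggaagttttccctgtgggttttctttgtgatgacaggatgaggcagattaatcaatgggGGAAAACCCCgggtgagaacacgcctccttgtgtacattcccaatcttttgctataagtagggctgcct

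Within the 250 bases before the start, 3 of the 4 promoters held an NF-κB match, Ccl7 from base -59 to -50, Ccl9 from -106 to -97 and Ccl20 from -89 to -80, each on the opposite strand. Of all 33469 promoters in the table, 6.33% held such a match in a window of the same length. The Ccl24 promoter held none. The TATA box letters TATAAA, searched on both strands, were found from -34 to -29 in Ccl7, from -65 to -60 in Ccl24 and, on the opposite strand, from -165 to -160 in Ccl9, and in 12.9% of all promoters. The AP-1 letters TGANTCA were found in Ccl7 (TGATTCA, -73 to -67) and in 6.34% of all promoters. For STAT proteins only the form of the motif with 4 free bases in its middle was searched, on both strands. That form was found in none of the 4 promoters and in 6.25% of all. Forms with fewer free bases were not searched, so other STAT motifs may be present. No motif overlapped another in these promoters, and a match is a description of the letters. In the same annotation Ccl2, Ccl7 and Ccl11 are neighbours on chromosome 10, and so are Ccl5, Ccl9, Ccl6, Ccl3 and Ccl4, in that order. Ccl24 lies beside Ccl26 on chromosome 12 and Ccl20 lies on chromosome 9.

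Levels are given as log2 signal, in which 1 unit is a 2-fold difference and 4 is the lower limit, with rats in the order of their numbers. A gene counted as changed when the limma test of the 2 groups gave a Benjamini-Hochberg adjusted p under 0.05 over all probe sets and the means differed at least 1.5-fold. Counts at an unadjusted p under 0.05 are given without the share of all genes, which was not counted. The share called lower than Vehicle was not counted either. Array medians before normalization were 6.84 to 7.18. On 5 arrays (rat 3 of 2-h Vehicle and of 18-h Severe PE, rat 1 of 18-h Vehicle and of 2-h Severe PE, and rat 4 of 18-h Mild PE) the 3′ signal of the control transcript Gapdh exceeded its 5′ signal by 0.322 to 0.638, against 0.176 to 0.282 on the others, which is a sign of shorter RNA.

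Ccl2, the main monocyte chemokine, was far higher in every PE lung than in any Vehicle lung at both times. At 2 h it read 7.34, 8.16 and 7.08 in Vehicle rats, 11.30, 11.37, 10.83 and 11.05 in Mild PE rats and 12.11, 12.36, 11.48 and 10.84 in Severe PE rats. The highest Vehicle rat stood more than 2 units under the lowest PE rat. Mild PE exceeded Vehicle by 3.61 (SE 0.29), a 12.2-fold difference that passed the test (limma, adjusted p = 0.0204). Severe PE exceeded Vehicle by 4.17 (SE 0.45, 18-fold), and this difference did not pass in the fit of the 2 groups (adjusted p = 0.0891) but passed in 1 fit on all 22 arrays (adjusted p = 0.000447). At 18 h Ccl2 read 7.75, 7.35 and 7.77 in Vehicle rats, 13.06, 12.55, 11.41 and 12.52 in Mild PE rats and 11.59, 12.22, 12.89 and 10.02 in Severe PE rats. Again no PE rat reached down to Vehicle, although Severe PE rat 4 and Mild PE rat 3 lay well below their groups. The difference from Vehicle was 4.76 (SE 0.40, 27.1-fold, adjusted p = 0.018) for Mild PE and 4.05 (SE 0.68, 16.6-fold, adjusted p = 0.0245) for Severe PE. The 4 PE groups overlapped in their order from 12.38 ± 0.70 in 18-h Mild PE down to 11.14 ± 0.24 in 2-h Mild PE (SD, n = 4 each).

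**Figure D1:**
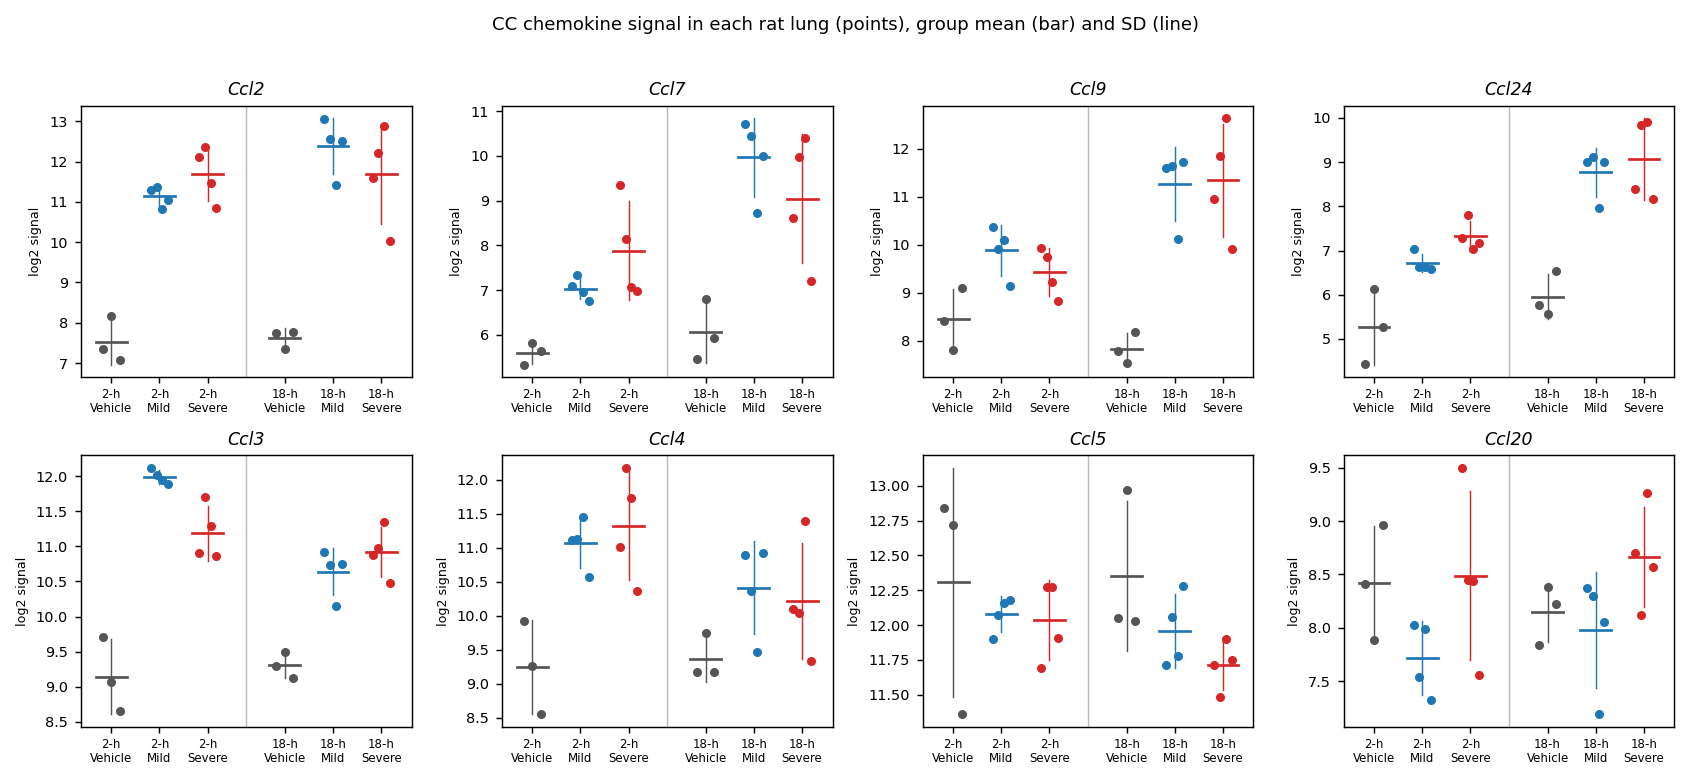
Log2 signal of the 8 chemokines in each rat (points) by time and dose, with the group mean as a bar and the SD as a vertical line (3 Vehicle rats and 4 rats of each PE group at each time; each panel has its own axis). For Ccl2 every PE rat lies above every Vehicle rat, Ccl3 has its highest values (11.89 to 12.12) at 2-h Mild PE, and Ccl5 and Ccl20 overlap between most groups.

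Ccl7, which acts on monocytes and also on eosinophils, was higher in all PE rats than in any Vehicle rat at both times. In 2-h lungs it read 5.34, 5.83 and 5.65 in Vehicle rats, 7.10, 7.33, 6.97 and 6.75 in Mild PE rats and 9.34, 8.14, 7.07 and 6.99 in Severe PE rats. Severe PE rat 1, whose array had a low 5′ signal, stood highest. The Vehicle values lay not far above the lower limit of 4. Neither difference from Vehicle passed, with 1.43 (SE 0.18, 2.70-fold, adjusted p = 0.0515) for Mild PE and 2.28 (SE 0.62, 4.85-fold, adjusted p = 0.427) for Severe PE. In 18-h lungs it read 5.46, 6.81 and 5.93 in Vehicle rats, 10.70, 10.44, 8.72 and 10.00 in Mild PE rats and 8.62, 9.97, 10.39 and 7.20 in Severe PE rats. The spread over the 4 Severe PE rats was 3.19 units, from 7.20 in rat 4 to 10.39 in rat 3. Mild PE exceeded Vehicle by 3.90 (SE 0.57, 14.9-fold, adjusted p = 0.0484), and Severe PE by 2.98 (SE 0.85, 7.88-fold), which did not pass (adjusted p = 0.0894) except in the fit on all arrays (adjusted p = 0.00538).

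Ccl9, a ligand of Ccr1 in mice, was one of 3 members, with Ccl2 and Ccl24, that were higher after both doses at 18 h in the fits of 2 groups. At 18 h Vehicle rats read 7.80, 7.53 and 8.19, Mild PE rats 11.60, 11.65, 10.12 and 11.73, and Severe PE rats 10.96, 11.85, 12.64 and 9.92. All 8 PE rats lay above the 3 Vehicle rats. The Mild PE rats had it higher by 3.43 (SE 0.45, 10.8-fold, adjusted p = 0.0414) and the Severe PE rats by 3.50 (SE 0.66, 11.3-fold, adjusted p = 0.0318). At 2 h Vehicle rats read 8.42, 7.82 and 9.10, Mild PE rats 10.38, 9.92, 10.10 and 9.15, and Severe PE rats 9.93, 9.75, 9.23 and 8.83. The Mild PE rats lay just above Vehicle, and the Severe PE group overlapped it through rat 4. These differences were 1.45 (SE 0.41, adjusted p = 0.246) for Mild PE and 0.99 (SE 0.40, adjusted p = 0.649) for Severe PE.

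Ccl24, the eosinophil chemokine, read 5.77, 5.56 and 6.53 in 18-h Vehicle rats, 9.01, 9.11, 7.95 and 8.99 in 18-h Mild PE rats and 8.39, 9.83, 9.90 and 8.16 in 18-h Severe PE rats. No PE rat overlapped Vehicle. It rose by 2.81 after Mild PE (SE 0.38, 7.01-fold, adjusted p = 0.0433) and by 3.11 after Severe PE (SE 0.55, 8.64-fold, adjusted p = 0.028). The 2-h values were 4.43, 6.13 and 5.26 in Vehicle rats, 7.03, 6.63, 6.62 and 6.58 in Mild PE rats and 7.29, 7.81, 7.04 and 7.17 in Severe PE rats. The 3 dose groups did not overlap at 2 h, in the order of the dose. The 2-h differences from Vehicle were 1.44 (SE 0.40, 2.71-fold, adjusted p = 0.239) for Mild PE and 2.05 (SE 0.43, 4.14-fold, adjusted p = 0.28) for Severe PE. The second passed in the fit on all arrays (adjusted p = 0.0418). The 2-h Vehicle values lay near the lower limit of 4. Over the other ways of processing, the 2-h differences went down to 0.67 for Mild PE and 1.28 for Severe PE. In order of the mean, both 18-h PE groups, 2-h Severe PE, 2-h Mild PE and the Vehicle groups followed each other, and only the 18-h PE groups and the Vehicle groups overlapped with their neighbour.

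Ccl3, which draws macrophages and other cells with Ccr1, peaked at 2 h of Mild PE. The 2-h values were 9.71, 9.07 and 8.65 in Vehicle rats, 12.12, 12.01, 11.95 and 11.89 in Mild PE rats and 10.90, 11.70, 11.29 and 10.86 in Severe PE rats. The 4 Mild PE rats lay within 0.22 units of each other and above every other rat of the series. Ccl3 rose by 2.85 after 2-h Mild PE (SE 0.25, 7.21-fold, adjusted p = 0.0232) and read 2.04 higher after 2-h Severe PE (SE 0.32, 4.13-fold, adjusted p = 0.189), which passed in the fit on all arrays (adjusted p = 0.000345). The 18-h values were 9.30, 9.50 and 9.13 in Vehicle rats, 10.92, 10.74, 10.15 and 10.75 in Mild PE rats and 10.88, 10.97, 11.35 and 10.48 in Severe PE rats. Both PE groups lay wholly above Vehicle. The difference was 1.33 for Mild PE (SE 0.21, 2.51-fold, adjusted p = 0.0531) and 1.61 for Severe PE (SE 0.22, 3.05-fold, adjusted p = 0.0155). The Mild PE difference thus missed the threshold in the fit of 2 groups and passed in the fit on all arrays (adjusted p = 0.00438).

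Ccl4, the close relative of Ccl3 that draws macrophages and T cells, read 9.93, 9.26 and 8.55 in 2-h Vehicle rats, 11.11, 11.13, 11.46 and 10.57 in 2-h Mild PE rats and 11.02, 12.18, 11.74 and 10.36 in 2-h Severe PE rats. The PE rats again lay above the Vehicle rats. The differences of 1.82 (SE 0.37, adjusted p = 0.15) for Mild PE and 2.07 (SE 0.54, adjusted p = 0.407) for Severe PE did not pass. At 18 h it read 9.17, 9.74 and 9.17 in Vehicle rats, 10.90, 10.36, 9.46 and 10.92 in Mild PE rats and 10.10, 10.04, 11.39 and 9.34 in Severe PE rats, and both PE groups overlapped Vehicle through their lowest rat. The 18-h differences were 1.05 (SE 0.40, adjusted p = 0.247) for Mild PE and 0.86 (SE 0.49, adjusted p = 0.352) for Severe PE.

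Ccl5, which T cells and NK cells make, did not pass in any comparison with Vehicle. It read 12.84, 12.72 and 11.36 in 2-h Vehicle rats, 11.90 to 12.18 in 2-h Mild PE rats and 11.69 to 12.27 in 2-h Severe PE rats. Vehicle rat 3, whose array had a low 5′ signal, was the lowest of all 22 rats. At 18 h it read 12.05, 12.97 and 12.03 in Vehicle rats, 11.71, 12.06, 11.78 and 12.28 in Mild PE rats and 11.71, 11.48, 11.90 and 11.75 in Severe PE rats, so that the Severe PE rats lay wholly below Vehicle (difference -0.64, SE 0.26, 95% interval -1.28 to 0.00, adjusted p = 0.197). Ccl20, which draws Ccr6-bearing lymphocytes and dendritic cells, read 7.84 to 8.38 in 18-h Vehicle rats, 7.19 to 8.37 in 18-h Mild PE rats and 8.12 to 9.26 in 18-h Severe PE rats. At 2 h its ranges were 7.89 to 8.96 in Vehicle, 7.32 to 8.03 in Mild PE and 7.56 to 9.50 in Severe PE rats. All groups of Ccl20 overlapped their neighbours in order of the mean, and its differences from Vehicle lay between -0.70 (2-h Mild PE, 95% interval -1.46 to 0.07) and 0.52 (18-h Severe PE, 95% interval -0.19 to 1.22).

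**Figure D2:**
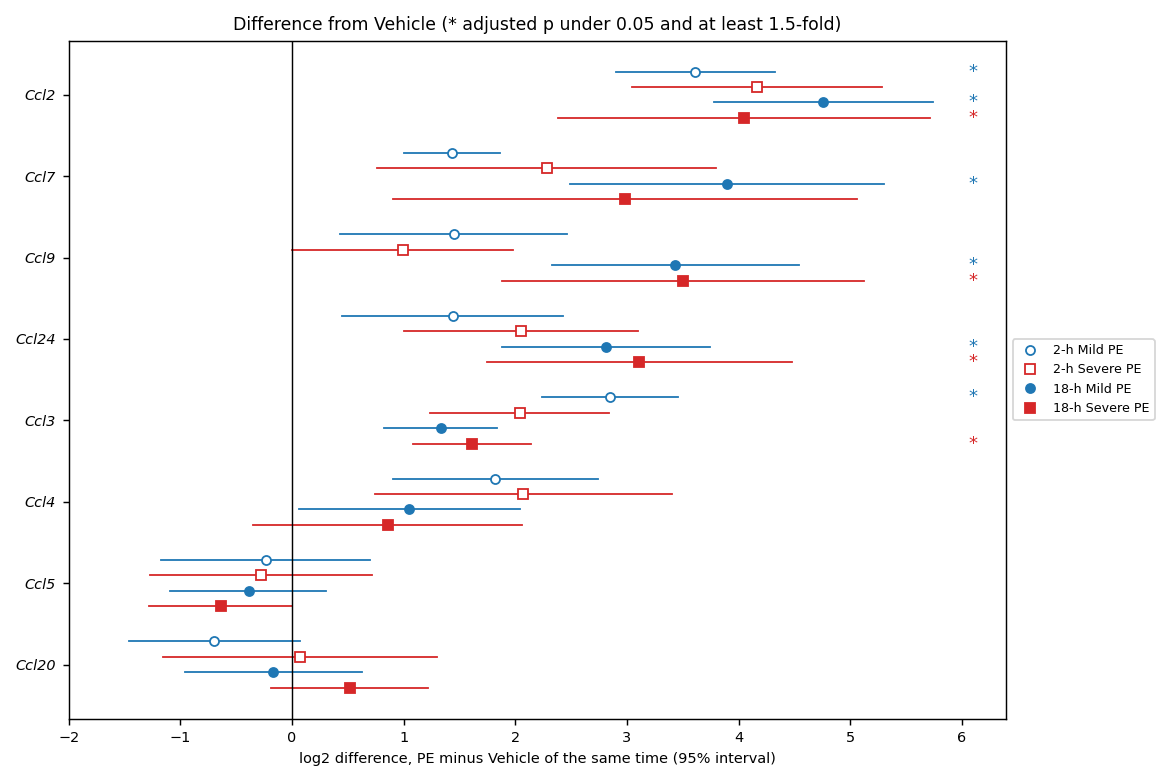
Log2 difference of each PE group from Vehicle of the same time (points) with its 95% interval (lines), by gene, for both doses at both times. Asterisks mark adjusted p under 0.05 with at least 1.5-fold: Ccl2 has 3, Ccl9, Ccl24 and Ccl3 have 2 each, Ccl7 has 1, and Ccl4, Ccl5 and Ccl20 have none.

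Counted over the family, 2 of the 8 members (Ccl2 and Ccl3) were higher in 2-h Mild PE, where 0.331% of all genes were higher, and in 6 members all Mild PE rats lay above all Vehicle rats, against 8.34% of all genes. The median difference over the members was 1.44, against 0.01 over all genes. In 2-h Severe PE none of the 8 passed against Vehicle (limma), where 0.0422% of all genes did. An unadjusted p under 0.05 was seen for 6 members, and its share over all genes was not counted. The methods' t-test called 0 members and the fit on all 22 arrays 3, where 0.795% of all genes were higher. In 5 members, Ccl2, Ccl3, Ccl4, Ccl7 and Ccl24, all 2-h Severe PE rats lay above Vehicle, against 4.29% of all genes, and the median difference was 2.05. At 18 h 4 members were higher after Mild PE (Ccl2, Ccl7, Ccl9 and Ccl24, against 0.76% of all genes) and 4 after Severe PE (Ccl2, Ccl3, Ccl9 and Ccl24, against 4.29%). In the fit on all arrays the same 5 members, Ccl2, Ccl3, Ccl7, Ccl9 and Ccl24, were higher after Mild PE (3.21% of all genes) and after Severe PE (6.83%). In 5 members all 18-h PE rats lay above Vehicle after either dose (10.2% of all genes for Mild PE and 14.5% for Severe PE), and after Severe PE 1 member, Ccl5, lay wholly below it (16.7%). The medians over the members were 2.07 for Mild PE and 2.29 for Severe PE, and 0 over all genes. Both doses were set against the same 3 Vehicle rats at each time.

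Most of these calls were lost when 1 rat was left out, for most choices of the rat, while the differences themselves moved little. Such fits also have fewer arrays, and why the calls were lost was not tested. Leaving out any 1 of the 4 Mild PE rats left 0 members changed at 2-h Mild PE, and leaving out Vehicle rat 1 or rat 2 left 1. At 18-h Mild PE any 1 rat left out gave 0 changed members, except Mild PE rat 3, without which there were 5. At 18-h Severe PE there were 5 without Severe PE rat 4, 2 without Severe PE rat 1, 0 without Vehicle rat 3 and 1 without any other rat, and at both doses 0 without the arrays of low 5′ signal. Across the same fits with 1 rat left out, Ccl2 stayed 3.40 to 3.93 above Vehicle at 2-h Mild PE, and at 18 h 4.53 to 5.08 above it for Mild PE and 3.65 to 4.6 for Severe PE.

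In the model of dose, time and their interaction over all 22 rats, dose passed for 6 of the 8 members, against 13.7% of all genes. The adjusted p-values were 4.38e-06 for Ccl2 and for Ccl3, 0.000179 for Ccl24, 0.000868 for Ccl9, 0.002 for Ccl7 and 0.0145 for Ccl4, whereas Ccl20 (0.169) and Ccl5 (0.331) did not pass. Leaving out 2-h Vehicle rat 3, or all arrays of low 5′ signal, exchanged Ccl4 (0.0505 and 0.0995) for Ccl5 (0.0237 and 0.017). The interaction passed for Ccl3 alone (adjusted p = 0.0374), against 5.35% of all genes, and the adjusted p was 0.0189 to 0.0731 with 1 rat left out, over the threshold without any one of the 2-h Mild PE rats, for example. For Ccl3 the Mild PE difference was smaller at 18 h than at 2 h by 1.52 (SE 0.36), close to the threshold (adjusted p = 0.0561). For Ccl9 the Severe PE difference was larger at 18 h by 2.51 (SE 0.76, adjusted p = 0.0595) and the Mild PE difference by 1.99 (SE 0.76, adjusted p = 0.246). For Ccl7 and Ccl24 the Mild PE difference was larger at 18 h by 2.47 (SE 0.96, adjusted p = 0.251) and 1.37 (SE 0.63, adjusted p = 0.35). None of the 8 passed this test of times (limma), after Mild PE (1.13% of all genes passed, 4 members at an unadjusted p under 0.05) or after Severe PE (8.22%, 1 member).

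The doses were compared directly to see where Severe PE and Mild PE rats differed. At 2 h none of the 8 members passed (limma), where 0.549% of all genes did, and 2 had an unadjusted p under 0.05. Ccl3 was lower in all Severe PE rats than in any Mild PE rat (difference -0.81, 95% interval -1.26 to -0.35, adjusted p = 0.148; 4.92% of all genes lay so), and Ccl24 was higher in all of them (0.61, 95% interval 0.16 to 1.06, adjusted p = 0.252; 4.2% of all genes). For Ccl2 the difference was 0.56 with a 95% interval of -0.25 to 1.37. At 18 h none passed, 0% of all genes did, no member had an unadjusted p under 0.05, and all 8 members overlapped between the doses (4.9% of all genes lay wholly higher and 5.75% wholly lower). The intervals were wide: -2.27 to 0.86 for Ccl2, -2.79 to 0.96 for Ccl7, -1.5 to 1.63 for Ccl9 and -0.89 to 1.5 for Ccl24. The methods' t-test and the fit on all arrays (0.767% of all genes at 2 h and 1.48% at 18 h) also called 0 members between the doses. Between the 18-h and 2-h Vehicle groups no member passed either, 0% of all genes did, none had an unadjusted p under 0.05, and all 8 overlapped (17.9% of all genes lay wholly higher and 11.2% wholly lower).

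In each PE group 1 rat had the lowest value of 6 or 7 of the 8 members. In 18-h Severe PE, rat 3 had the highest value of all 8 members and rat 4 the lowest of 6 (Ccl2, Ccl3, Ccl4, Ccl7, Ccl9 and Ccl24). In 18-h Mild PE, rat 3 had the lowest value of 7 members, all but Ccl5. At 2 h, rat 4 was the lowest in 6 members in both Mild PE and Severe PE. The Vehicle groups were mixed: 18-h Vehicle rat 2 was highest in 5 members and lowest in 3, rat 3 was highest in 3 and lowest in 3, and 2-h Vehicle rats 1 and 2 were each highest in 3 and lowest in 2. How all genes rank the rats was not counted. The array of 18-h Severe PE rat 3 was among those of low 5′ signal (Gapdh 0.322), and the arrays of the low rats were not (0.196 to 0.282). For the control transcript beta-actin the same excess of 3′ signal was 1.04 in that rat and 0.918 to 1.06 in the low rats. The part of RNA quality in these values was not tested.

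**Figure D3:**
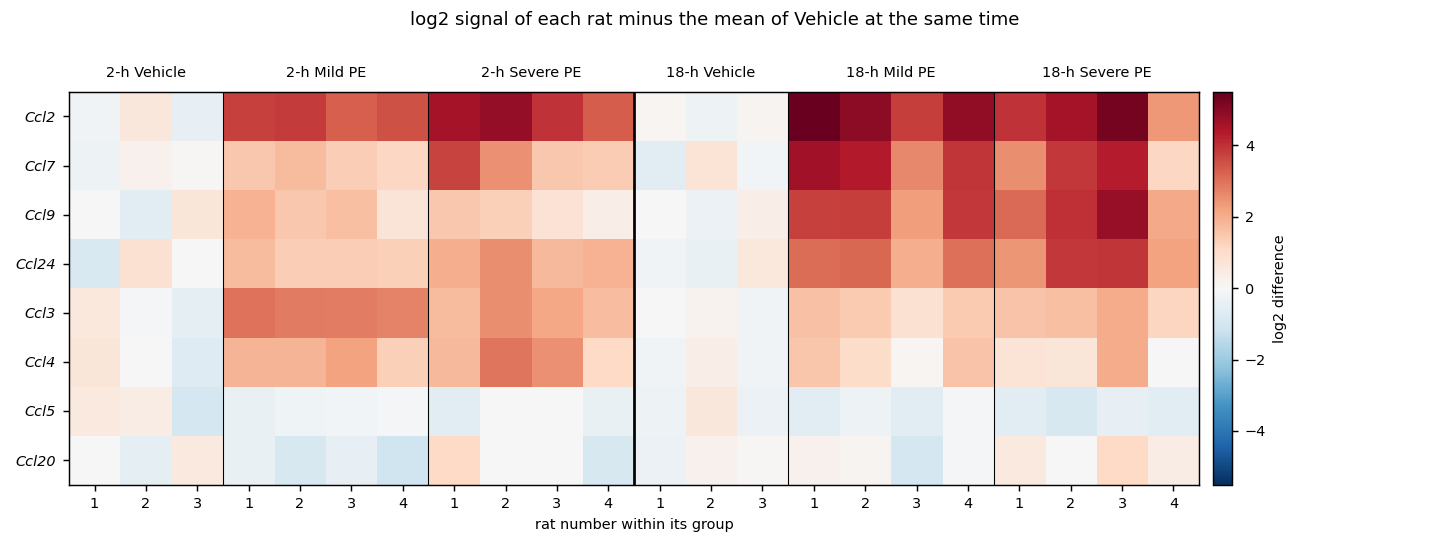
Log2 signal of each rat (columns, numbered within their group) minus the mean of the Vehicle rats of the same time, for the 8 members (rows), in colour. The columns of 18-h Mild PE rat 3 and 18-h Severe PE rat 4 are paler for most members than those of the other rats of their groups, and the rows of Ccl5 and Ccl20 hold values of both signs.

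Likeness of pattern was measured as the root mean square difference of z-scores over the 22 arrays, so that 0 is an identical pattern, and was computed against 12486 genes, whose median was 1.36 to 1.41 for the 8 members. These arrays share groups and rats, so the values are descriptions. Among the members, Ccl7, Ccl9 and Ccl24 were most alike (0.417 for Ccl7 and Ccl24, 0.457 for Ccl7 and Ccl9, 0.467 for Ccl9 and Ccl24), followed by Ccl2 and Ccl7 (0.52) and by Ccl3 and Ccl4 (0.524). Ccl3 differed more from Ccl7 (1.04), Ccl24 (1.03) and Ccl9 (0.935), and Ccl5 lay far from all other members (1.32 to 1.70). Across all genes, Ccl2 was closest to Egr2 (0.289), Il6 (0.335) and Rgs16 (0.359), and Ccl3 to Cxcl2 (0.264), Tnf (0.299) and Il1b (0.413). Cxcl2, a neutrophil chemokine, read 6.43 ± 0.48 (Vehicle), 10.23 ± 0.38 (Mild PE) and 9.61 ± 0.40 (Severe PE) at 2 h, and 6.52 ± 0.1 (Vehicle), 8.22 ± 0.38 (Mild PE) and 8.85 ± 0.41 (Severe PE) at 18 h (mean and SD). Ccl4 was closest to Cxcl10 (0.404), Cd83 (0.435) and Bcl2a1 (0.475). Bcat1, an enzyme that breaks down branched-chain amino acids, was among the closest 3 genes of Ccl24 (0.264), Ccl9 (0.373) and Ccl7 (0.407). It read 7.33 ± 0.16 (Vehicle), 8.26 ± 0.41 (Mild PE) and 8.58 ± 0.46 (Severe PE) at 2 h, and 7.51 ± 0.26 (Vehicle), 10.12 ± 0.64 (Mild PE) and 9.98 ± 0.74 (Severe PE) at 18 h. The others were Polr1e (0.338) and Tmem185b (0.363) for Ccl24, Pak1ip1 (0.372) and Eef1e1 (0.382) for Ccl9, and Eef1e1 (0.334) and Sele (0.403) for Ccl7. Ccl5 was closest to Nkg7 (0.514), Zap70 (0.518) and Lck (0.554), genes of T and NK cells, and Ccl20 had no close partner, with Tcp1 (0.547), Nrp2 (0.61) and Pomp (0.61) nearest.

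Of the cytokines that induce these chemokines, 7 of 8 listed were measured, and 2 were higher at 2-h Mild PE (0.331% of all genes). Tnf, a cytokine that macrophages release early, read 11.71, 11.47, 11.25 and 11.40 in 2-h Mild PE rats, against 7.87, 7.25 and 6.90 in 2-h Vehicle rats (4.11 higher, SE 0.25, adjusted p = 0.0103). In 2-h Severe PE rats it read 9.45, 10.40, 9.48 and 9.71, which was 1.69 lower than in Mild PE (SE 0.23, adjusted p = 0.0398) and wholly above Vehicle (difference 2.42, SE 0.33, adjusted p = 0.136). At 18 h it was higher by 1.75 after Mild PE (adjusted p = 0.0417) and by 1.46 after Severe PE (adjusted p = 0.0417). Il1b read 12.54, 12.47, 12.54 and 11.97 in 2-h Mild PE rats, against 9.87, 9.0 and 8.70 in 2-h Vehicle rats (3.19 higher, SE 0.31, adjusted p = 0.0303). It also lay wholly above Vehicle in 2-h Severe PE (10.8 to 12.12, difference 2.15, adjusted p = 0.255) and in 18-h Mild PE (difference 1.10, adjusted p = 0.0567). In the fit on all arrays 2 of the 7 cytokines were higher in 2-h Severe PE than in Vehicle lungs (0.795% of all genes). Il4 and Ifng, whose products induce Ccl24 and Ccl5 in other settings, were at the lower limit on 18 and 12 of the 22 arrays. Of 9 measured regulators of transcription and mRNA decay, Zfp36 alone passed in the fits of 2 groups, a protein that speeds the decay of Tnf and chemokine RNA. It read 12.48 ± 0.05 in 2-h Mild PE and 11.32 ± 0.26 in 2-h Vehicle lungs (SD, difference 1.15, SE 0.12, adjusted p = 0.0379). In 2-h Severe PE lungs it read 13.13 ± 0.25, wholly above Vehicle, with a larger difference that did not pass (1.80, SE 0.18, adjusted p = 0.0882). The fit on all arrays called 2 regulators higher at 2-h Mild PE, where the share of all genes was not counted. It called 3 at 2-h Severe PE (0.795% of all genes), 1 at 18-h Mild PE (3.21%) and 2 at 18-h Severe PE (6.83%).

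**Figure D4:**
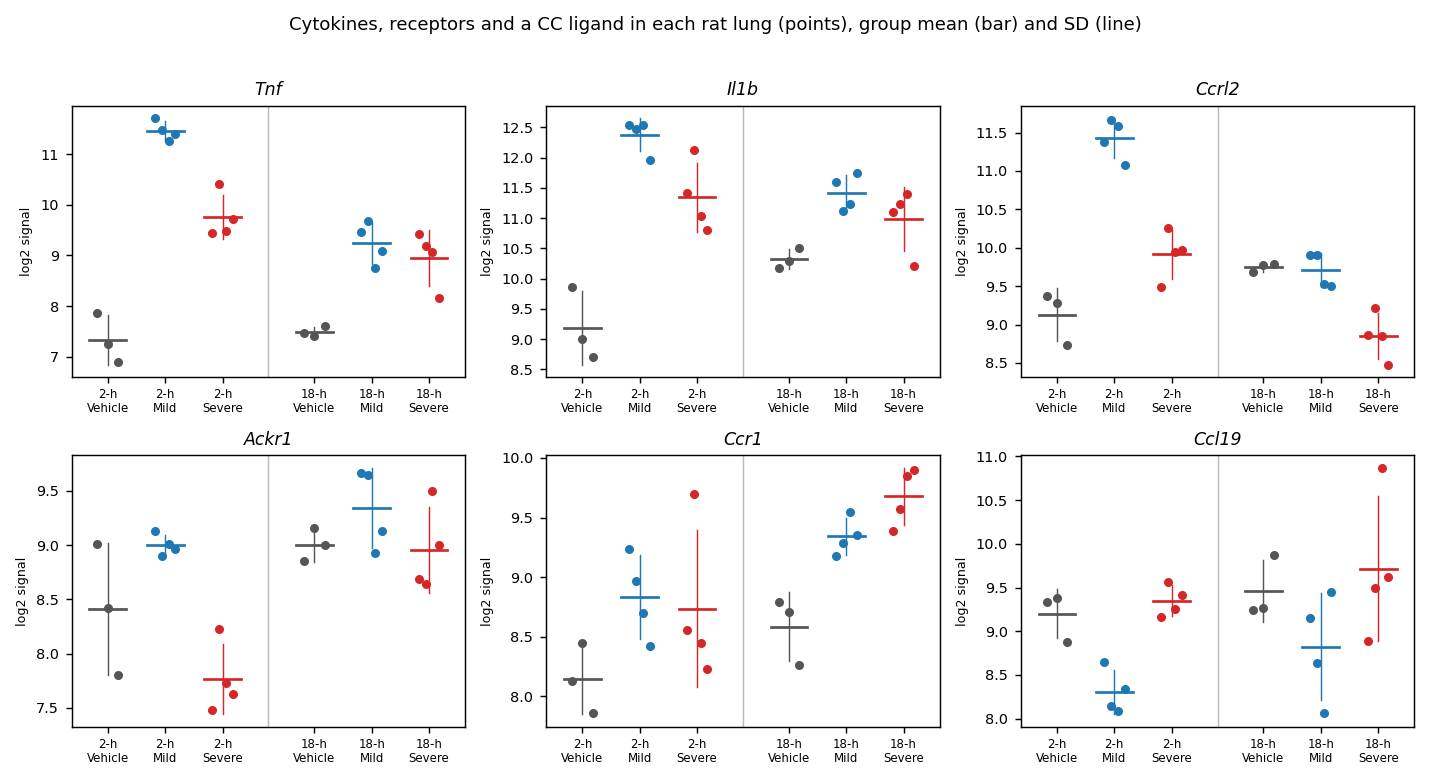
Log2 signal of Tnf, Il1b, Ccrl2, Ackr1, Ccr1 and Ccl19 in each rat (points) by time and dose, with the group mean as a bar and the SD as a vertical line. Tnf and Ccrl2 are highest in the 4 rats of 2-h Mild PE, and Ccr1 is above Vehicle in all 18-h PE rats.

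Among the receptors, 6 of 10 CC receptors and 4 of 4 atypical receptors were measured. Ccr1, the receptor shared by Ccl3, Ccl5, Ccl7 and, in mice, Ccl9, was the only CC receptor that passed. It read 9.39, 9.57, 9.85 and 9.90 in 18-h Severe PE rats, against 8.79, 8.71 and 8.26 in 18-h Vehicle rats (1.09 higher, SE 0.19, adjusted p = 0.0263). In 18-h Mild PE rats it read 9.18 to 9.55, also wholly above Vehicle (0.75 higher, adjusted p = 0.0831). Ccr2, the monocyte receptor of Ccl2 and Ccl7, and Ccr3, the eosinophil receptor of Ccl24, did not pass. They are given for their ligands and were picked after their values were seen. At 18 h Ccr2 averaged 4.47 (Vehicle), 5.40 (Mild PE) and 5.34 (Severe PE), and Ccr3 5.12 (Vehicle), 5.06 (Mild PE) and 5.46 (Severe PE), all close to the lower limit of 4. Ccrl2, which binds chemerin and gives no chemotactic signal, was 2.30 higher in 2-h Mild PE than in Vehicle lungs (SE 0.21, adjusted p = 0.0275). It was 1.51 lower in 2-h Severe PE than in 2-h Mild PE lungs (adjusted p = 0.0367) and 0.89 lower in 18-h Severe PE than in Vehicle lungs (adjusted p = 0.0315). Ackr1, the receptor of red cells and venules that takes up chemokines, read 7.48, 8.23, 7.73 and 7.63 in 2-h Severe PE rats, against 9.13, 8.90, 9.01 and 8.96 in 2-h Mild PE rats (1.24 lower, SE 0.16, adjusted p = 0.0371).

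Of 11 other CC ligands listed, 8 were measured and none passed against Vehicle (limma) at either time. An unadjusted p under 0.05 was seen for 1 after either dose at 2 h and for 3 after either dose at 18 h. All 18-h Severe PE rats lay above Vehicle for Ccl22 (difference 2.02, adjusted p = 0.0696, with 1 Vehicle array at the lower limit). They lay below it for Ccl21 (-0.7, adjusted p = 0.153) and Ccl27 (-0.42, adjusted p = 0.167). Of all genes, 14.5% lay wholly above Vehicle and 16.7% wholly below it in these rats. All 18-h Mild PE rats lay above Vehicle for Ccl17 (1.23, adjusted p = 0.155) and below it for Ccl6 (-0.26, adjusted p = 0.55). There 10.2% of all genes lay wholly above Vehicle, and the share wholly below was not counted. Ccl19, which guides cells with Ccr7 to lymphoid tissue, read 9.16, 9.56, 9.26 and 9.42 in 2-h Severe PE rats, against 8.65, 8.14, 8.09 and 8.34 in 2-h Mild PE rats, and it was higher (difference 1.05, SE 0.15, adjusted p = 0.0471), whereas the fit on all arrays called 0 of these ligands between the doses at 2 h. The median difference from Vehicle over the 8 members was 1.44 (2-h Mild PE), 2.05 (2-h Severe PE), 2.07 (18-h Mild PE) and 2.29 (18-h Severe PE). Over the other ligands it was 0.05, 0.03, 0.09 and 0.28 in the same order. The members and gene lists were chosen with earlier results of these data known, so these medians are descriptions. In the fit on all arrays 1 of the other ligands was higher after Mild PE (3.21% of all genes) and after Severe PE (6.83%) at 18 h. There 1 was lower after Severe PE, where the share of all genes was not counted.

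Markers of the cells that these chemokines act on were followed in the same lungs. Of 6 measured monocyte markers, Vcan passed at 18 h after Mild PE (2.13 higher, adjusted p = 0.0498) and after Severe PE (2.85 higher, adjusted p = 0.011), and none passed against Vehicle at 2 h (limma, with 3 of them at an unadjusted p under 0.05 for Mild PE, 0 for Severe PE and 0 called in the fit on all arrays). The summed signal of the 6 was 7826 to 10440 (Vehicle), 13455 to 16260 (Mild PE) and 9331 to 16388 (Severe PE) at 2 h. At 18 h it was 9878 to 11910 (Vehicle), 15082 to 20473 (Mild PE) and 11610 to 16175 (Severe PE). The Mild PE sums lay above Vehicle at both times and the Severe PE sums overlapped it. Ccl2 lay wholly above Vehicle after both doses. Most of the marker sum is Plac8, with a mean of 12.75 (Vehicle), 13.47 (Mild PE) and 13.22 (Severe PE) at 2 h. Itgam read 8.44 to 8.82 in 18-h Severe PE and 4 to 7.16 in 18-h Vehicle rats, with 1 Vehicle array at the lower limit. Itgam and Vcan lay wholly above Vehicle there, and the rest of the 6 overlapped it. In the fit on all arrays 3 of the 6 were higher at 18-h Mild PE (3.21% of all genes) and 2 at 18-h Severe PE (6.83%). Of 9 macrophage markers, Cd14 (1.18 higher, adjusted p = 0.0226) and Cd163 (2.07 higher, adjusted p = 0.044) passed at 18-h Severe PE. Csf1r (difference -0.33), Adgre1 (-0.53) and Lyz2 (-0.15) had means below Vehicle there and did not pass. The sum of all 9 was 36233 to 38897 (Vehicle), 41156 to 46853 (Mild PE) and 39931 to 43974 (Severe PE) at 18 h.

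**Figure D5:**
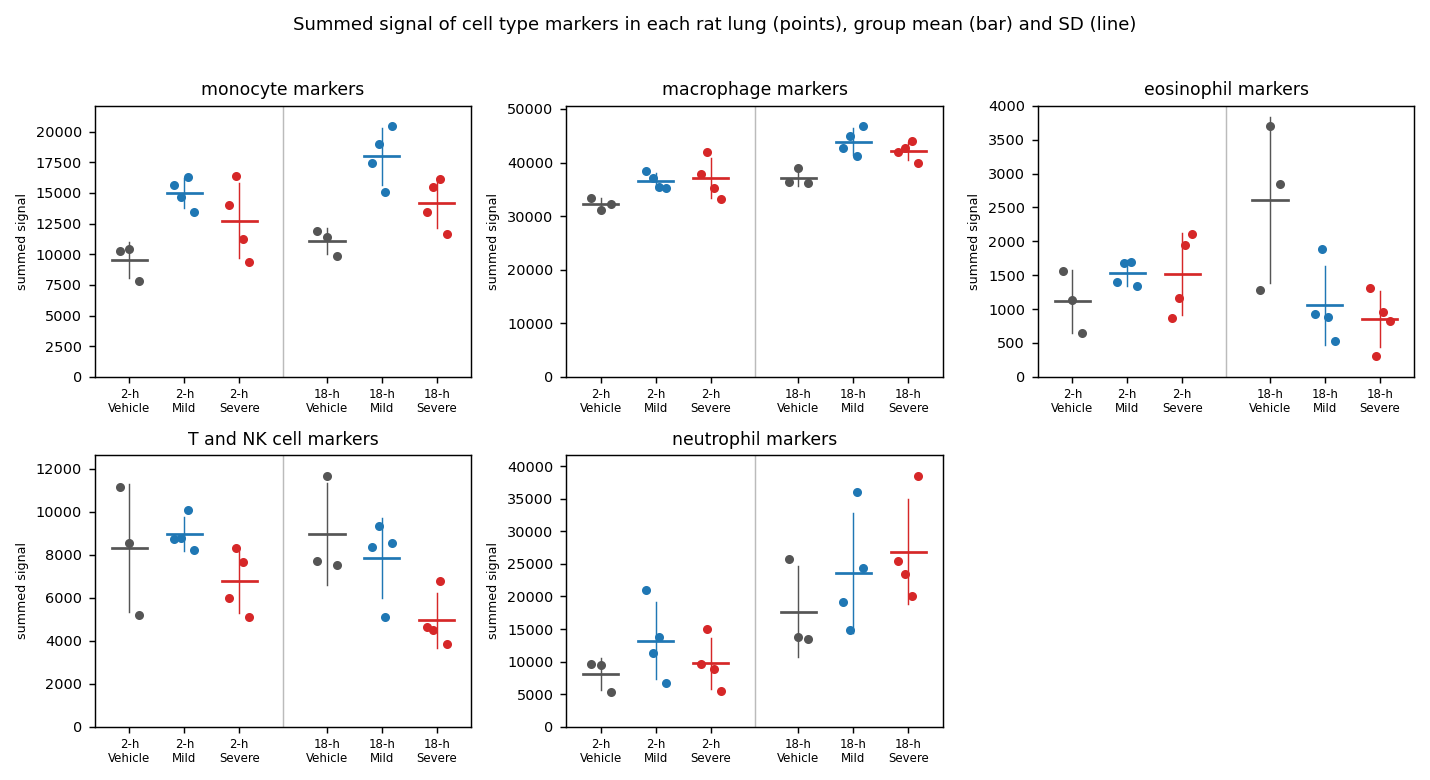
Summed signal of the measured markers of monocytes (6 genes), macrophages (9), eosinophils (5), T and NK cells (10) and neutrophils (7) in each rat (points), with the group mean as a bar and the SD as a vertical line. Axes start at 0. Monocyte sums lie above Vehicle in both Mild PE groups, eosinophil sums do not lie above Vehicle at 18 h, and T and NK cell sums are lowest in 18-h Severe PE (3850 to 6774).

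None of the 5 measured markers of eosinophils, the cells that Ccl24 draws, passed in any comparison (limma), with 1 at an unadjusted p under 0.05 after either dose at 18 h and 1 lower after 18-h Severe PE in the fit on all arrays. Their sum was 1285 to 3704 (Vehicle), 527 to 1882 (Mild PE) and 308 to 1305 (Severe PE) at 18 h. Most of that sum is Alox15, which other lung cells also express, with a mean of 11.14 in Vehicle, 9.66 after Mild PE and 9.20 after Severe PE at 18 h. Epx, the eosinophil peroxidase, averaged 4.79, 4.45 and 4.37 in the same order, near the lower limit. Prg2 (4.97, 5.6 and 5.39), Il5ra (4.12, 4.38 and 4.48) and Ccr3 (5.12, 5.06 and 5.46) had higher means after Severe PE than in Vehicle. These were also low signals, and Ccr3 belongs to both this list and the receptors. T and NK cell markers summed to 3850 to 6774 in 18-h Severe PE and 7504 to 11688 in 18-h Vehicle lungs. Cd3g was 0.95 lower (limma, adjusted p = 0.0307), the only one of 10 markers that passed in that comparison. In the fit on all arrays 5 were lower, where the share of all genes was not counted. Ccl5 lay wholly below Vehicle in the same 18-h Severe PE rats. Cd8a, of cytotoxic T cells, was 1.56 lower in 2-h Severe PE than in 2-h Mild PE lungs (adjusted p = 0.0148), while the fit on all arrays called 0 of these markers in that comparison. The 2-h Vehicle rat 3, lowest in Ccl5, had the lowest T and NK cell sum of its group (5199, against 11150 and 8562). None of 7 neutrophil markers passed (limma, 2 at an unadjusted p under 0.05 in 2-h Mild PE and in either dose at 18 h, 0 in the fit on all arrays), and their sum was 13436 to 25841 (Vehicle), 14782 to 36086 (Mild PE) and 20100 to 38605 (Severe PE) at 18 h. The 4 platelet markers, of which none passed (limma, at 2 h 3 had an unadjusted p under 0.05 for Mild PE, 1 for Severe PE, 0 in the fit on all arrays), summed to 3850 to 5651 (Vehicle), 6531 to 7847 (Mild PE) and 6535 to 9228 (Severe PE) at 2 h. Of 5 mast cell markers, Kit passed at 18-h Severe PE (0.66 lower, adjusted p = 0.0307), and their sum was 369 to 707 in 18-h Severe PE and 880 to 1326 in 18-h Vehicle lungs. Of 10 markers of lung epithelium and endothelium, Vwf passed at 18-h Severe PE (0.70 lower, adjusted p = 0.023). The part of cell numbers in the chemokine values was not tested.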

How the data were processed

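Right lung RNA of 22 rats (3 Vehicle, 4 Mild PE and 4 Severe PE at 2 h and at 18 h) was hybridized to 1-colour arrays, 1 per rat. The deposited values are linear probe set intensities, which the authors summarised from each array and scaled to a common trimmed mean of 500.2. The software behind them is not given in the sources used here, and they are not the GC-RMA log2 values that the methods describe. After 57 controls were left out, 31042 probe sets remained (20826 with 1 gene symbol, 436 with several, 9780 with none). Signals under 16 were set to 16 (13.6% to 17.3% of probe sets per array), log2 was taken and arrays were quantile normalized. Each pair of groups was fitted alone with limma 3.58.1 in R 4.3.3 (moderated variances with no trend), and the model of dose and time on all 22 arrays. Calls needed a Benjamini-Hochberg adjusted p under 0.05 and at least 1.5-fold. Alternatives tried were median centring, no further normalization, a floor of 64, a variance trend, leaving out the 50% of probe sets with the lowest mean signal, 1 fit on all 22 arrays, gene means over probe sets, the methods' t-test, a replicate block, leaving out the arrays of low 5′ signal and leaving out each rat in turn. The scripts were tested on simulated data.

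Precision is limited by having 3 or 4 arrays in a group. The labels call the rats biological replicates, and their numbers were not used as pairs. The members and gene lists were chosen with earlier results of these data known. The text names all 8 members and listed genes that were called in a comparison. It also names the 3 genes most like each member (at most 5 arrays at the limit). Ccr2, Ccr3, Alox15, Epx, Prg2, Il5ra, Il4, Ifng, Plac8, Csf1r, Adgre1, Lyz2, Ccl6, Ccl17, Ccl21, Ccl22 and Ccl27 were picked after their values were seen. Itgam was picked in the same way. Of 108 listed genes, 90 were measured. Shared Vehicle rats tie the comparisons within a time. Motifs were searched in the 250 bases before the start of every RefSeq promoter (GRCr8).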

Additional observations from a re-analysis of the deposited data

Results flagged for a closer look

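In 3 cases a single value stood apart from the other rats of their group by Dixon's criterion, among 32 sets of a member and a PE group examined, and chance gives about 1 in 20. In 18-h Mild PE, rat 3 had 10.12 for Ccl9, with the nearest rat at 11.60 (the gap was 0.917 of the whole range). The same rat had 7.95 for Ccl24, with the nearest at 8.99 (0.892). In 2-h Mild PE, rat 1 had 7.03 for Ccl24, with the nearest at 6.63 (0.876).

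For Ccl3 the response to dose differed between 2 h and 18 h in the test of the interaction (limma, adjusted p = 0.0374), with the highest level in all 4 rats of 2-h Mild PE. This call was lost in 16 of 30 alternatives, over which the adjusted p was 0.0164 to 0.119.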

How the results depend on the processing

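The 88 member results were recomputed under 1920 alternatives, of which 1754 kept direction and side of the threshold, 101 lost the call, 31 gained it and 34 changed sign. The cause of these changes was not tested. At 2-h Mild PE the 2 changed members became 4 when the 50% of probe sets with the lowest mean signal were left out (fewer probe sets tested) and 0 with the methods' t-test. At 2-h Severe PE 0 became 1 with median centring, 2 without these dim probe sets and 3 in 1 fit on all 22 arrays. At 18-h Mild PE 4 became 1 with a floor of 64, 0 without arrays of low 5′ signal and 0 with the methods' t-test. At 18-h Severe PE 4 became 0 without those arrays and 1 with the methods' t-test. For the change between times, 0 became 1 without these dim probe sets or with gene means, for either dose, and the 1 member with an interaction became 0 without arrays of low 5′ signal. With 1 rat left out the counts were 0 to 2 (2-h Mild PE), 0 to 5 (18-h Mild PE), 0 to 5 (18-h Severe PE), 0 to 1 (either dose between times), 6 to 6 (dose) and 0 to 2 (interaction).

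With the replicate number as a block, 0 members changed at 2-h Mild PE and at 18 h for either dose, and 0 had an interaction. The correlation of deviations between arrays with the same number was -0.273 to 0.123 (median -0.00967, 51 pairs). Arrays with different numbers were not set beside them, so whether the numbers pair the rats was not tested.

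Signs changed only in differences that did not pass. Without arrays of low 5′ signal these were Ccl5 (0.07) in 2-h Severe against Mild PE, Ccl9 (-0.22) in 18-h Severe against Mild PE, Ccl2 (-0.18), Ccl3 (-0.07), Ccl4 (-0.14), Ccl5 (-0.28) and Ccl20 (0.15) in 18-h against 2-h Vehicle, and Ccl5 (0.05) in the Mild PE change between times. Without further normalization Ccl2 had -0.05 between Vehicle groups, and its Severe PE change between times was 0.08, and 0.02 with median centring. With 1 rat left out, Ccl5 ranged from -0.71 to 0.04 in 2-h Mild PE and Ccl20 from -0.27 to 0.38 in 2-h Severe PE and from -0.32 to 0.09 in 18-h Mild PE, each against Vehicle. Between doses Ccl4 ranged from -0.03 to 0.58 and Ccl5 from -0.12 to 0.07 at 2 h, and Ccl4 from -0.58 to 0.10 and Ccl9 from -0.37 to 0.54 at 18 h. Between Vehicle groups Ccl2 ranged from -0.12 to 0.42, Ccl3 from -0.08 to 0.45, Ccl4 from -0.24 to 0.45 and Ccl5 from -0.43 to 0.31. In the change between times Ccl5 ranged from -0.43 to 0.31 after Mild PE and from -0.64 to 0.11 after Severe PE, and Ccl2 from -0.52 to 0.43 after Severe PE. Groups of 3 and 4 rats limit all calls.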
